A study of Mus musculus with 8 samples.

Results

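The genes described here were Gkn2, which encodes the secreted stomach protein gastrokine 2, and 7 other genes of gastric and gut-type epithelium, measured in whole lungs of mice that develop K-ras mutant lung adenocarcinoma. They were Gkn1, Gkn2, Tff1, Tff2, Hnf4a, Lgals4, Ctse and Vil1, which made 8 of the 54532 genes in the count table. The set was selected on the comparison between TTI-101 and control lungs: Gkn2 was 1 of 4 genes that DESeq2 called at an adjusted p under 0.05, and the other genes were added because they belong to gastric and intestinal epithelium. The values of that comparison are therefore given for the members as a description, and no test of them is offered.

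All 8 mice were CC-LR mice, on a C57BL/6 background, in which Cre expressed from the club cell secretory protein locus removes the stop cassette in front of a K-rasG12D allele in airway secretory cells. Both groups carried these alleles and were 14 weeks of age when the lungs were taken. There were 4 Control mice and 4 mice that had received TTI-101, a small-molecule inhibitor of the transcription factor STAT3, for 4 weeks from 10 weeks of age, and the comparison asks which transcripts of the tumor-bearing lung differ after STAT3 is inhibited. The route and dose for these mice, and whether the Control mice received a vehicle, were not given in the sources used here.

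Each library came from 1 mouse and held between 16075855 and 26873509 counts, with overlapping depths in the groups. The labels gave no sex, and Xist, which marks the inactive X chromosome, was at least 400 CPM in mice 1 and 2 and at most 2.11 CPM in mice 3 and 4 of both groups. Control 4 stood apart with 5.56% of its counts from mitochondrial genes, against 2.01% to 2.85% in the other 7 libraries. The lung origin was clear in every library, in which the 12 alveolar type 2 cell markers summed to between 43834 and 98068 CPM. CPM is the count of a gene scaled to a common library size by TMM, and values are in this unit unless a level per length is named. The whole lung was sequenced, so fewer cells of a type and less RNA per cell cannot be told apart. All p-values below measure the spread between mice, and intervals and floors cover counting error only.

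Gastrokines are small secreted proteins with a BRICHOS domain, made by surface mucous cells of the stomach, where they protect the mucosa and restrain growth. Gastrokine 2 forms a disulfide-linked dimer with the trefoil peptide Tff1, and trefoil peptides are secreted with mucins and promote repair of the mucosa. Hnf4a, a nuclear receptor, drives gene expression in liver and intestine, while Nkx2-1 keeps lung epithelium in its pulmonary state, and lung adenocarcinomas of mice that lose Nkx2-1 are known to take on gastric features. Lgals4, Ctse and Vil1 are often measured in such tumors.

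Gkn2 (ENSMUSG00000030049) lies on chromosome 6 from 87373357 to 87379497 on the plus strand of GRCm38, between Gkn1 and Gkn3 of the same family. Relative to its start, Gkn1 starts at -22.42 kb and Gkn3 at 15.58 kb, and both of these genes are on the minus strand. The promoters of these 3 neighbors are printed because the genes share a locus and differed in their counts. The first promoter of Hnf4a is printed because of its correlation with Gkn2 within the groups, which is given with its limits below. Each sequence is from RefSeq on GRCm38.p6, runs 5′ to 3′ on the strand of the gene, and covers 250 bases before and 50 bases after the first base of the transcript. Capitals mark matches to 6 motifs searched on both strands, which were the core promoter letters TATAAA, the STAT letters TTCNNNGAA, the forkhead letters TGTTTNC, the letters AGATAA of GATA factors, the HNF4 letters CAAAGTCCA and the NKX2 letters CACTTGA.
Gkn2, chr6:87373115-87373414, plus strand: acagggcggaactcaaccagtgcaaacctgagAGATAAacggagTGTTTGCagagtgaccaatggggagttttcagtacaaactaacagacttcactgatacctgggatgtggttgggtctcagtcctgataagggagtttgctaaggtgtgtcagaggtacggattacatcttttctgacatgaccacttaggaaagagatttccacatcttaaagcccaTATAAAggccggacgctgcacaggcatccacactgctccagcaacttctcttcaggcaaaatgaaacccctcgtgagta
Gkn1, chr6:87350866-87351165, minus strand: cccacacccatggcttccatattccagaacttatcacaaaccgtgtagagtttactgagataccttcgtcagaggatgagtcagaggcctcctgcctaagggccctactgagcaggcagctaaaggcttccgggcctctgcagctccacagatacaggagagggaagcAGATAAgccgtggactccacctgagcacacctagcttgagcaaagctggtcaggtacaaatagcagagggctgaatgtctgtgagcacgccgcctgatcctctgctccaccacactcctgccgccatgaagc
Gkn3, chr6:87388886-87389185, minus strand: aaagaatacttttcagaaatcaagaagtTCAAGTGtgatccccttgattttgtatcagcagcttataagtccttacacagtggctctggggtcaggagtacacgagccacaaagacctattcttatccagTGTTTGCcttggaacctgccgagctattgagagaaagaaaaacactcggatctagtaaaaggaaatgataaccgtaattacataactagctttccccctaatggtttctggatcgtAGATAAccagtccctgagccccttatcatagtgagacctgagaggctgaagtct
Hnf4a, chr2:163506607-163506906, plus strand: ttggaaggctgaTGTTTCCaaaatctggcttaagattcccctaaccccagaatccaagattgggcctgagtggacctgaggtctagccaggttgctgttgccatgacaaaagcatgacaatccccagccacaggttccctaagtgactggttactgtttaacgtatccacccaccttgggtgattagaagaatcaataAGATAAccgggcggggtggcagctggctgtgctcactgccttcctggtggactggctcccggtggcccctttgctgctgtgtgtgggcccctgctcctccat

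Of the 4 printed promoters, that of Gkn2 was the one with a TATAAA, whose first base was at -29 from the transcript start. It also held TGTTTGC from -206 and AGATAA from -218. The Gkn1 promoter held AGATAA from -82. The Gkn3 promoter held TGTTTGC from -120, AGATAA across the start, and CACTTGA on the opposite strand, printed as TCAAGTG. The Hnf4a promoter held TGTTTCC from -238 and AGATAA from -52. None of these 4 windows, and neither of the RefSeq promoters of Lgals4 and Vil1 nor the second one of Hnf4a, held the STAT letters TTCNNNGAA or the HNF4 letters CAAAGTCCA. Among all 32851 RefSeq promoters of this length, TATAAA was in 13.6%, TTCNNNGAA in 8.30%, TGTTTNC in 20.5%, AGATAA in 11.2%, CAAAGTCCA in 0.475% and CACTTGA in 3.06%, so most of these letters are common. A match is a description of letters, and a missing match says only that they are not in this window. RefSeq promoters were matched for 5 of the 8 members. Tff1, Tff2 and Ctse were not matched.

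Gkn2 was present in all 4 Control lungs and nearly absent from all 4 TTI-101 lungs. The Control lungs held 74, 29, 132 and 1001 counts, which were 2.71, 1.73, 7.32 and 64.0 CPM in mice 1 to 4. The TTI-101 lungs held 7, 3, 0 and 2 counts, which were 0.264, 0.180, 0 and 0.122 CPM. The groups did not overlap, and the highest TTI-101 lung was below the lowest Control lung. The mean was 18.9 ± 30.1 CPM (SD, n = 4) for Control and 0.141 ± 0.111 CPM (SD, n = 4) for TTI-101 lungs, a 134-fold difference of means.

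The log2 fold change of Gkn2 was -6.91 (standard error 1.38), and none of the other genes among the 17138 tested had a lower one. In DESeq2, its adjusted p was 0.00317, and 4 of 31769 genes (0.0126%) passed that threshold. In edgeR's quasi-likelihood test, the adjusted p of Gkn2 was 0.657. By that test 0 of the 17138 genes (0%) had an adjusted p under 0.05, with a lowest adjusted p over all genes of 0.105. In edgeR 1132 genes had an unadjusted p under 0.05, against 1689 genes in DESeq2. Between groups without overlap, 245 genes (1.43%) had all TTI-101 libraries below all Control libraries and 263 genes (1.53%) had all of them above. Gkn2 was chosen by this contrast, so nothing is read from these shares.

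**Figure D1:**
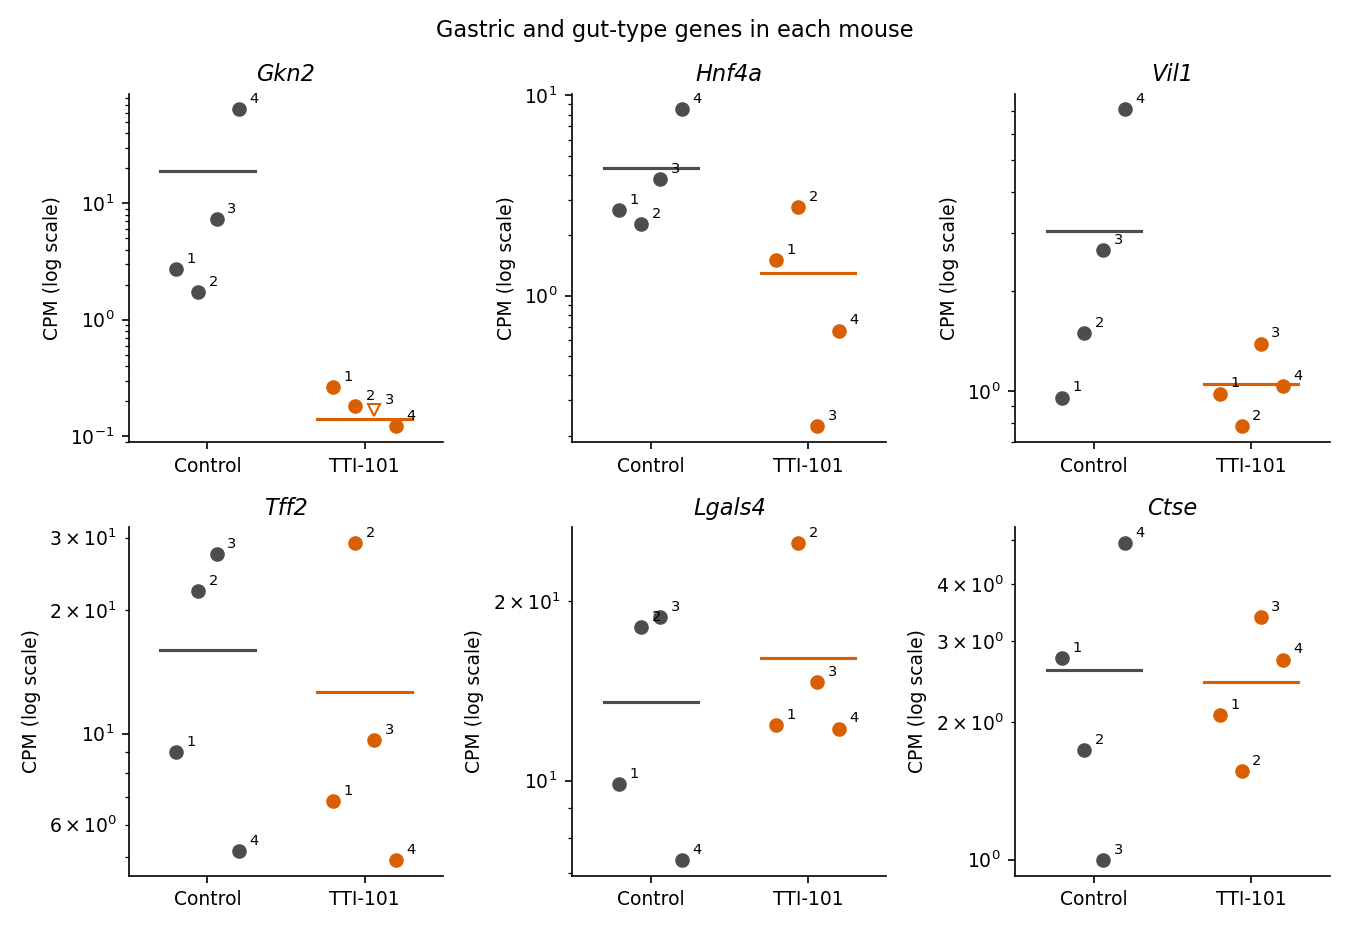
CPM of the 6 members that passed the filter on low counts, on log axes, in 4 Control (gray) and 4 TTI-101 (orange) lungs. Each point is 1 mouse with its number, bars are group means and the open triangle is the lung with 0 counts, drawn at the level of 3 counts; the groups are apart for Gkn2 (at least 1.73 against at most 0.264 CPM) and overlap for the other 5 genes.

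A single lung carried most of the Gkn2 in the Control group. Control 4 held 84.5% of the summed Control CPM, and its 64.0 CPM (95% Clopper-Pearson interval 60.1 to 68.1) was far above the next highest lung at 7.32 CPM. Without Control 4, the Control mean was 3.92 ± 2.98 CPM (SD, n = 3), which was 27.8-fold the TTI-101 mean, and the log2 fold change was -4.64. The 4 TTI-101 lungs were each at the limit of detection, with intervals of 0.106 to 0.543 CPM in mouse 1, 0.0371 to 0.526 CPM in mouse 2 and 0.0147 to 0.439 CPM in mouse 4. In mouse 3, a count of 0 allowed a level of up to 0.167 CPM (3 counts in that library).

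The levels of Gkn2 are also given for mice with high and with low Xist apart. Since the groups did not overlap in Gkn2, any such split must show a difference in both parts, and nothing is read from its direction. Among mice 1 and 2, with high Xist, the means of the 2 Control and 2 TTI-101 lungs were 2.22 and 0.222 CPM, a 10.0-fold difference. Among mice 3 and 4, with low Xist, they were 35.7 and 0.0608 CPM, a 587-fold difference. The higher Gkn2 levels of the Control group were thus in the low-Xist lungs, and with 2 lungs a group this was not tested.

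Epithelial transcripts had lower means in the TTI-101 lungs, with overlapping groups. All 10 of 10 general epithelial genes, among them Epcam and Krt8, had a log2 fold change below 0, with a median of -0.64, where 49.4% of all tested genes were below 0. In edgeR, 5 of the 10 were lower at an unadjusted p under 0.05, against 3.58% of all tested genes, and 0 had an adjusted p under 0.05. None of the 10 was at 0 in either group. Their summed level ranged from 1689 to 3461 CPM in Control, with the highest in Control 4, and from 1366 to 2110 CPM in TTI-101 lungs. Gkn2 per 1000 CPM of these genes was 1.61, 0.921, 3.33 and 18.5 in Control 1 to 4 and 0.193, 0.0854, 0 and 0.0865 in TTI-101 1 to 4. The gap between the groups in Gkn2 itself, 1.73 against 0.264 CPM, was wider in fold than the range of these sums. Division by the sums could therefore not bring overlap, and nothing is read from the groups being apart on this scale. TTI-101 2, whose epithelial sum of 2110 CPM lay inside the Control range, had 0.180 CPM of Gkn2. The part of epithelial content in the level of Gkn2 was not tested.

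**Figure D2:**
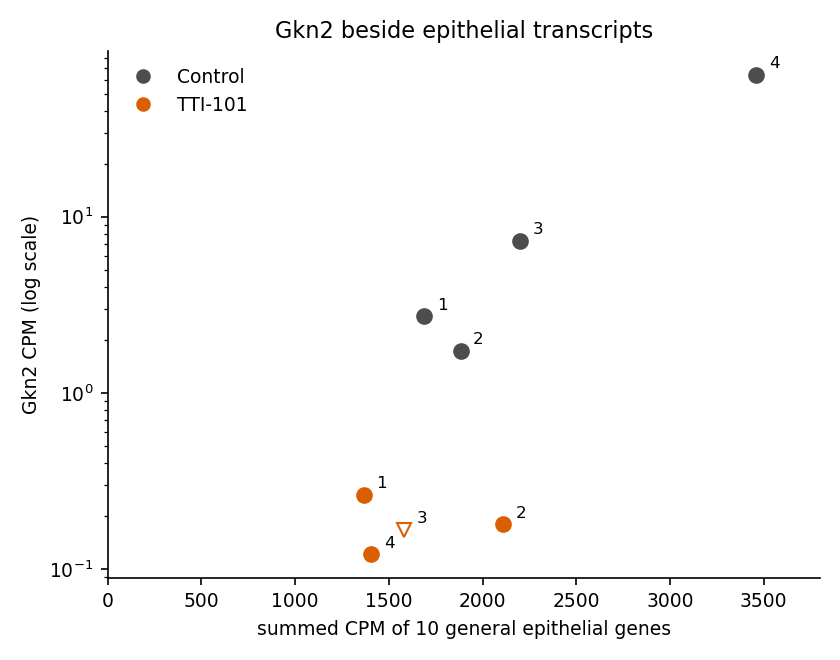
Gkn2 CPM (log axis) against the summed CPM of 10 general epithelial genes (linear axis) in each of the 8 lungs, with Control in gray, TTI-101 in orange and mouse numbers beside the points; the open triangle is the lung with 0 counts, drawn at the level of 3 counts. TTI-101 2 had an epithelial sum of 2110 CPM, between Control 2 (1883) and Control 3 (2199), and lay below both in Gkn2.

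The other gastrokines did not share the pattern of Gkn2. Gkn1 (chromosome 6, 87345650 to 87350942, minus strand) had 0 counts in 7 lungs and 1 count in TTI-101 2. Gkn3 (chromosome 6, 87383256 to 87388935, minus strand), which is not a member, was detected evenly, with 106 counts in Control and 102 in TTI-101 lungs. Its mean was 1.37 ± 0.298 CPM (SD, n = 4) for Control and 1.29 ± 0.478 CPM (SD, n = 4) for TTI-101 lungs, and the log2 fold change was -0.08 (edgeR adjusted p = 0.960, standard error 0.37). The remaining protein-coding gene within 100 kb of Gkn2 was Bmp10, which encodes a growth factor of the heart and had 1 count in Control and 0 in TTI-101 lungs. In Control 4, where Gkn2 was at 64.0 CPM, Gkn3 was at 1.73 CPM against 0.999 to 1.39 CPM in the other Control lungs.

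Of the trefoil peptides, Tff1, the partner of gastrokine 2 in the stomach, was not detected in any lung. Tff1 (ENSMUSG00000024032, chromosome 17, 31161396 to 31165053, minus strand) had 0 counts in all 8 libraries, which allows a level of up to 0.0193 CPM over them (3 counts). Tff3, the intestinal trefoil peptide, had 1 count in all. With Gkn1 and Tff1 at or near 0 in both groups, the defining pair of gastric surface cells was missing, and the lungs are described below by the single genes and not as gastric in type.

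Tff2 (ENSMUSG00000024028, chromosome 17, 31141049 to 31144282, minus strand), the trefoil peptide of mucous neck cells, was expressed in every lung. It was at 9.02, 22.2, 27.4 and 5.18 CPM in Control 1 to 4 and at 6.86, 29.1, 9.62 and 4.93 CPM in TTI-101 1 to 4. The lungs with the most Tff2 were Control 2, Control 3 and TTI-101 2, and the groups overlapped. The means were 15.9 ± 10.5 CPM (SD, n = 4) for Control and 12.6 ± 11.2 CPM (SD, n = 4) for TTI-101 lungs, with a log2 fold change of -0.34 (standard error 0.62), and this difference was smaller than the spread within the groups. Control 4, the lung with the most Gkn2, had the least Tff2 of the Control group.

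Hnf4a (ENSMUSG00000017950, chromosome 2, 163506808 to 163572910, plus strand) was low in all lungs and lower in 3 of the 4 TTI-101 lungs than in any Control lung. It was at 2.68, 2.27, 3.83 and 8.51 CPM in Control 1 to 4 and at 1.51, 2.76, 0.222 and 0.669 CPM in TTI-101 1 to 4. TTI-101 2 lay inside the Control range, and TTI-101 3 held just 4 counts of the gene. The means were 4.32 ± 2.87 CPM (SD, n = 4) and 1.29 ± 1.12 CPM (SD, n = 4), a 3.35-fold difference that was 2.27-fold without Control 4, and the log2 fold change was -1.73 (standard error 0.66). In the high-Xist mice 1 and 2, Hnf4a was at a mean of 2.47 CPM in Control and 2.13 CPM in TTI-101 lungs, against 6.17 and 0.446 CPM in the low-Xist mice 3 and 4. The difference in means was thus larger in mice 3 and 4, and the contrast between the pairs was not tested.

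Vil1 (ENSMUSG00000026175, chromosome 1, 74409376 to 74435559, plus strand) encodes villin, which bundles actin in microvilli. It was at 0.954, 1.49, 2.66 and 7.10 CPM in Control 1 to 4 and at 0.980, 0.781, 1.39 and 1.03 CPM in TTI-101 1 to 4. Control 4 was again the highest, and Control 1 and 2 lay at the level of the TTI-101 lungs. The means were 3.05 ± 2.79 CPM (SD, n = 4) and 1.05 ± 0.254 CPM (SD, n = 4), a 2.92-fold difference that was 1.63-fold without Control 4, which held 58.1% of the Control sum. The log2 fold change was -1.53 (standard error 0.59) with all lungs and -0.68 without Control 4.

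Lgals4 and Ctse differed between the groups by less than their spread within them. Lgals4 (ENSMUSG00000053964, chromosome 7, 28833854 to 28841708, plus strand), a galectin of gut epithelium, was at 9.87, 18.1, 18.8 and 7.36 CPM in Control 1 to 4 and at 12.4, 25.1, 14.6 and 12.2 CPM in TTI-101 1 to 4. Its means were 13.5 ± 5.78 CPM (SD, n = 4) and 16.1 ± 6.11 CPM (SD, n = 4), with a log2 fold change of 0.25 (standard error 0.34), which made it the one member above 0. The highest Lgals4 was in TTI-101 2, followed by Control 3 and Control 2, which were also the 3 lungs with the most Tff2.

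Ctse (ENSMUSG00000004552, chromosome 1, 131638306 to 131675505, plus strand) encodes cathepsin E, an aspartic protease of gastric mucous cells that is also found in immune and red cells. It was at 2.75, 1.73, 0.999 and 4.92 CPM in Control 1 to 4 and at 2.07, 1.56, 3.39 and 2.74 CPM in TTI-101 1 to 4. The means were 2.60 ± 1.71 CPM (SD, n = 4) and 2.44 ± 0.796 CPM (SD, n = 4), with a log2 fold change of -0.09 (standard error 0.47). In the same lungs, 8 of 8 B cell markers and 6 of the 6 tested of 8 red cell markers had a log2 fold change above 0, with medians of 1.12 and 2.48. Their summed levels were 119 to 318 against 274 to 567 CPM and 59.5 to 265 against 207 to 1594 CPM in Control and TTI-101 lungs. Their part in the level of Ctse was not tested.

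Per transcript length, as FPKM over all 8 lungs, the order was Tff2 (24.5), Gkn2 (12.1), Lgals4 (6.40), Ctse (0.795), Hnf4a (0.581), Vil1 (0.577), Gkn1 (0.0060) and Tff1 (0). Tff2 was above 87.3% of the tested genes on this scale, while Hnf4a was above 11.1% of them and Vil1 lay just below Hnf4a. The FPKM of Gkn2 was 24.0 in Control, between Tff2 and Lgals4, and 0.179 in TTI-101 lungs, below Vil1. Its place in this order rested on Control 4, at 81.2 FPKM against at most 9.29 FPKM in the other Control lungs. In the Control lungs, the range of Gkn2 overlapped those of Tff2 and Lgals4, and the ranges of Ctse, Hnf4a and Vil1 overlapped each other.

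**Figure D3:**
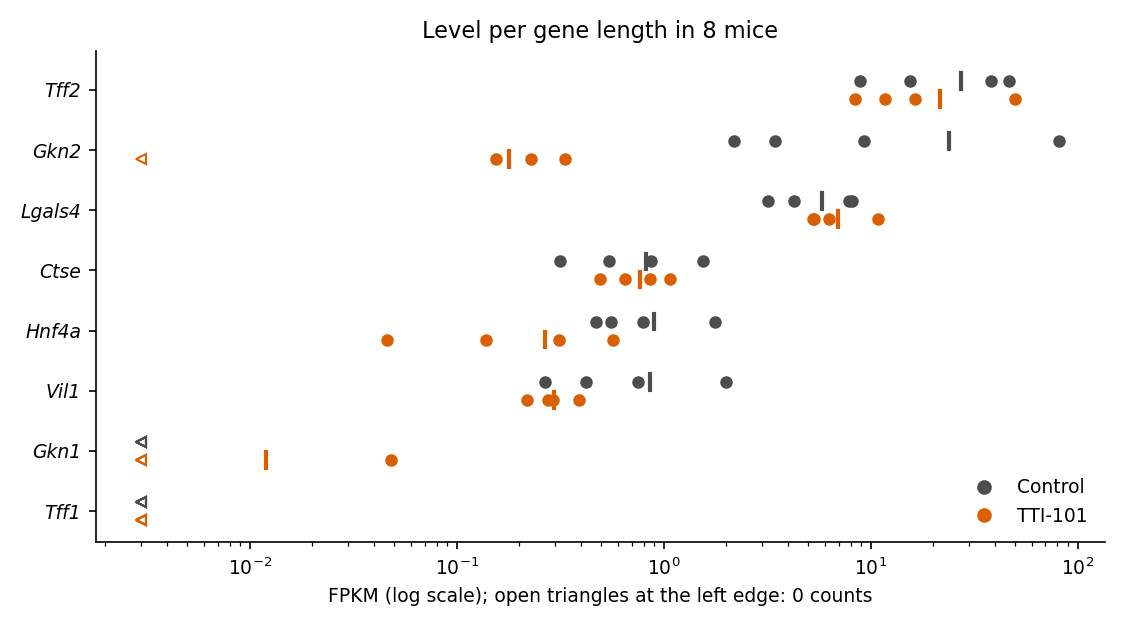
FPKM of the 8 members on a log axis, with 4 Control (gray) and 4 TTI-101 (orange) lungs as points and group means as vertical bars; open triangles at the left edge are lungs with 0 counts. Gkn2 had means of 24.0 FPKM in Control and 0.179 FPKM in TTI-101 lungs, and the groups overlap for Tff2, Lgals4, Ctse, Hnf4a and Vil1.

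Within the groups, Gkn2 had one of the largest SDs among the tested genes. The SD of its log2 CPM around the group means was 1.71, larger than that of 99.6% of the 17138 tested genes, whose median was 0.33. The SD was 2.29 in Control and 0.79 in TTI-101 lungs, and the highest Control lung had 36.9 times the CPM of the lowest. This ranking made no allowance for counting error, which weighs more at low counts, as for Gkn2 in the TTI-101 lungs. Hnf4a and Tff2 followed with SDs of 1.12 and 1.11, above 97.3% and 97.2% of genes, then Vil1 with 0.87, Ctse with 0.74 and Lgals4 with 0.58, above 79.6% of genes.

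Since the group difference had chosen the members, co-variation among them was measured inside the groups, on log2 CPM after the group means were subtracted, with two-sided exact permutation tests over the 576 pairings of mice within groups. Of the 5 pairs with Gkn2, the pair with Hnf4a passed the adjustment. Pearson's r was 0.736 (exact permutation p = 0.0052, adjusted p = 0.026) and Spearman's rho was 0.857 (exact permutation p = 0.0052, adjusted p = 0.026). Control 4 and Control 2 were farthest from the median of Gkn2, and without them r was 0.789 (exact permutation p = 0.0625, n = 6). With each lung left out in turn, r stayed between 0.717 and 0.861, but in 6 of the 8 repeats the adjusted p by exact permutation rose to between 0.0694 and 0.139 and the pair no longer passed. Gkn2 passed the filter on low counts through the Control lungs alone. Inside the TTI-101 group, this relation rests on Gkn2 counts between 0 and 7, so no relation is read for the TTI-101 lungs by themselves. The permutations exchanged these counts too, so the p-values over all 8 lungs rest in part on counts at the limit of detection. The pass of this pair is thus not a result of the Control lungs alone. The permutations also exchanged lungs of high and low Xist. Among Control lungs, Gkn2 and Hnf4a were both higher in the low-Xist lungs, and among TTI-101 lungs both were higher in the high-Xist lungs. The permutation p therefore does not separate the relation from the Xist split, and the part of Xist was not tested. The remaining pairs did not pass. For Vil1, r was 0.797 (exact permutation p = 0.120, adjusted p = 0.299) and rho 0.548 (exact permutation p = 0.288), and r dropped to 0.188 without Control 4 and Control 2, so the value of r rested on those lungs. For Tff2, Lgals4 and Ctse, r with Gkn2 was -0.413, -0.480 and 0.377, with exact permutation p of 0.370, 0.337 and 0.583, and rho was -0.190, -0.143 and 0.071, with exact permutation p of 0.703, 0.766 and 0.906. The sign of these 3 values of r turned when Control 4 was left out.

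Of all pairs of members, Tff2 and Lgals4 had the highest correlation. The other 10 pairs of the 6 members were added after the data had been seen, and adjustment was then over 15 pairs. For Tff2 and Lgals4, r was 0.981 (exact permutation p = 0.0017, the smallest possible, adjusted p = 0.026) and rho was 0.976 (exact permutation p = 0.0017, adjusted p = 0.026). Without Control 3 and TTI-101 2, the lungs farthest from the median of Tff2, r was 0.967 (exact permutation p = 0.0278, n = 6), and with each lung left out in turn r stayed between 0.975 and 0.993. Ctse ran against both, with r of -0.823 with Tff2 (exact permutation p = 0.0191, adjusted p = 0.0955) and -0.860 with Lgals4 (exact permutation p = 0.0260, adjusted p = 0.0977), which did not pass the adjustment. With 15 pairs, the adjusted p of Gkn2 and Hnf4a was 0.0391 by exact permutation, and no other pair passed. The limits given above for Gkn2 and Hnf4a hold here too.

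**Figure D4:**
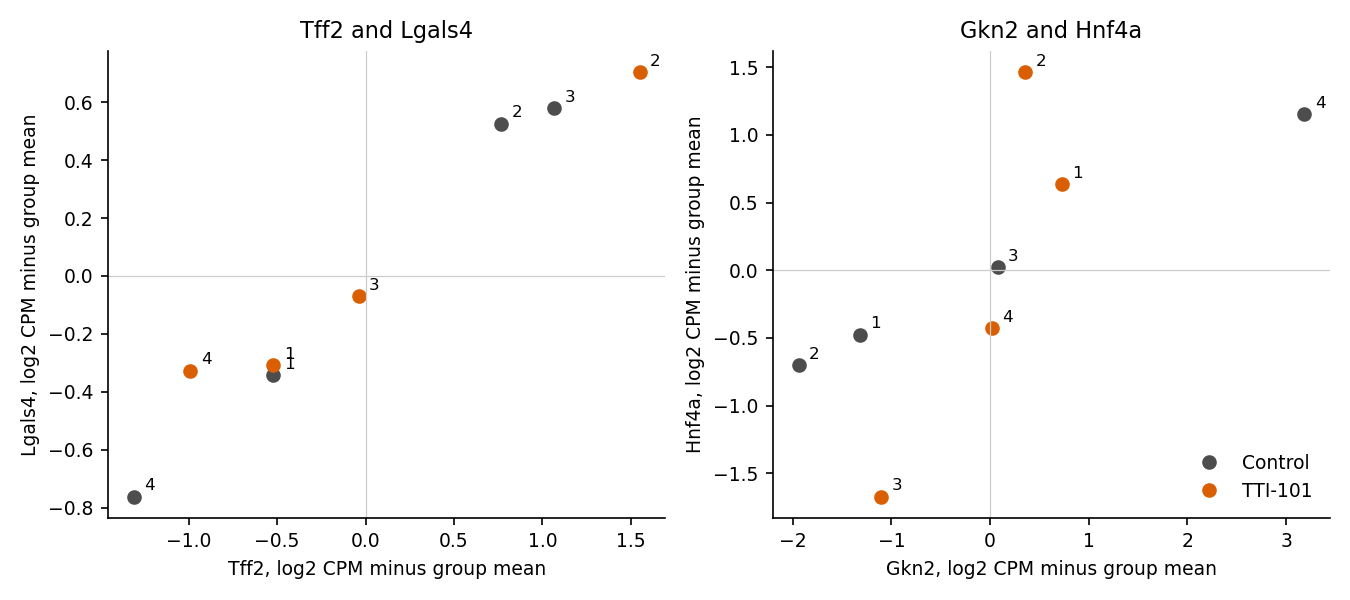
Deviations of log2 CPM from the group mean for Tff2 and Lgals4 (left) and for Gkn2 and Hnf4a (right) in 4 Control (gray) and 4 TTI-101 (orange) lungs, 1 point for each mouse with its number. The left points lie close to a line (r = 0.981), and on the right (r = 0.736) Control 4 and TTI-101 2 are high and TTI-101 3 is low in Hnf4a.

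Other genes of gastric and intestinal epithelium were taken from 5 lists with 86 genes, none of them members. Of these, 7 had no counts in any lung, 47 passed the filter on low counts and 34 of the 47 (72.3%) had a log2 fold change below 0, with a median of -0.32, against 49.4% and a median of 0.00 over all 17138 genes. By edgeR's quasi-likelihood test, 0 of the 47 had an adjusted p under 0.05. At an unadjusted p under 0.05, 6 were lower and 0 were higher in TTI-101 lungs, against 614 (3.58%) lower and 518 (3.02%) higher of all genes. With library totals in place of TMM, 32 of the 47 were below 0, and 525 genes were lower and 542 higher. That count of 6 depended on single lungs: it was 0 without TTI-101 1 or TTI-101 3, 1 without Control 4 or TTI-101 4, and 13 without Control 1 or TTI-101 2. None of the 47 tested list genes separated the groups without overlap. Among the 39 genes not tested, 3 did at low counts, and they are named after their values were seen: Gpa33, an intestinal surface antigen, had 81 counts in Control and 7 in TTI-101 lungs, Onecut2 had 12 and 1, and Cym had 0 and 13. For Gpa33, the highest Control lung was at 4.03 CPM against a Control mean of 1.22 CPM. The share of such genes among all genes not tested was not counted, so nothing is read from these 3. Of the 6 members that passed the filter, 5 were below 0 with a median of -0.93, and as they were chosen by this contrast nothing is read from their count.

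On the list of gastric surface and mucous cell genes, 8 of the 10 tested of 18 genes were below 0, with a median log2 fold change of -0.49. Muc5ac, the main mucin of the gastric surface, was at 6.90 ± 3.00 CPM (SD, n = 4) for Control and 4.76 ± 3.72 CPM (SD, n = 4) for TTI-101 lungs, with a log2 fold change of -0.54 and 3 of 4 TTI-101 lungs below all Control lungs. Muc6, the gland mucin, had a log2 fold change of -0.46, and Anxa10, which did not pass the filter, had 10 counts in Control and 1 in TTI-101 lungs. The Anxa10 counts in Control were mostly from 1 lung, at 0.598 CPM. The genes with the highest levels per length were Muc1, Cldn18, Vsig2 and Prom1, of which Muc1 and Prom1 had log2 fold changes of -0.51 and -0.59 and Cldn18 and Vsig2 of 0.08 and 0.06. Prom1 was the one with an unadjusted p under 0.05 (edgeR adjusted p = 0.657). Cldn18, a tight junction protein of both stomach and lung, was at 588 CPM in Control and 620 CPM in TTI-101 lungs.

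Among gastric gland genes, 5 of the 6 tested of 12 were below 0, with a median of -0.47, and none had an unadjusted p under 0.05. Ghrl, which encodes ghrelin, had a log2 fold change of -1.11 (standard error 0.58), the acidic chitinase gene Chia1 of -0.51, the transcription factor gene Bhlha15 of -0.54 and the potassium channel subunit gene Kcne2 of -0.06. Pga5, Atp4b and Gast, which encode pepsinogen, a subunit of the gastric proton pump and gastrin, had no counts in any lung.

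Intestinal enterocyte and goblet genes were evenly spread, with 6 of the 10 tested of 22 below 0 and a median of -0.03. Slc5a1, the sodium-glucose transporter of enterocytes, and Phgr1 were lower at an unadjusted p under 0.05, with log2 fold changes of -0.75 and -1.52 (edgeR adjusted p = 0.657 for both). The genes with the highest levels, Ctsd, Lgals3, Lgals9 and Reg3g, had log2 fold changes of 0.00, -0.06, 0.53 and 0.31, so the galectins Lgals3 and Lgals9 had values of opposite sign. Krt20, a keratin of differentiated gut epithelium, did not pass the filter and was at 1.44 ± 1.74 CPM (SD, n = 4) in Control, with 4.03 CPM in the highest lung, and 0.381 ± 0.233 CPM (SD, n = 4) in TTI-101 lungs. Cdh17, the intestinal cadherin, had 22 counts in Control and 29 in TTI-101 lungs.

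Microvillus and brush border genes, the partners of Vil1, had a median log2 fold change of -0.08, with 5 of the 8 tested of 14 below 0 and none at an unadjusted p under 0.05. Ezr, Pls3, Myo1d and Fscn1, which encode ezrin, plastin 3, a myosin and fascin, had the highest levels and log2 fold changes of -0.35, -0.30, 0.14 and -0.01. They ran between 0.14 and -0.35, and Vil1 was at -1.53 with all lungs and -0.68 without Control 4. Vil1 was at 3.05 CPM in Control, below each of these genes, and was chosen with the contrast known. Nothing is therefore read from its distance to them.

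Of the gut endoderm transcription factors, 10 of the 13 tested of 20 were below 0, with a median of -0.39, and Klf5, Sox2 and Spdef had an unadjusted p under 0.05. Their log2 fold changes were -0.49, -0.94 and -1.04 (edgeR adjusted p = 0.657 for each). Spdef, a factor of mucous cells, was at 5.43 ± 2.13 CPM (SD, n = 4) for Control and 2.63 ± 1.59 CPM (SD, n = 4) for TTI-101 lungs. Foxa1 and Foxa2, pioneer factors of lung and gut, had log2 fold changes of -0.38 and -0.35, Creb3l1 of -0.39 and Klf4 of 0.60. Other gut factors were nearly silent: Hnf4g had 5 and 3 counts in Control and TTI-101 lungs, Pdx1 0 and 2, and Cdx2 none. Nkx2-1, the lung factor, was at 470 ± 60.4 CPM (SD, n = 4) for Control and 397 ± 106 CPM (SD, n = 4) for TTI-101 lungs, and its log2 fold change was -0.25 (edgeR adjusted p = 0.722, standard error 0.20).

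**Figure D5:**
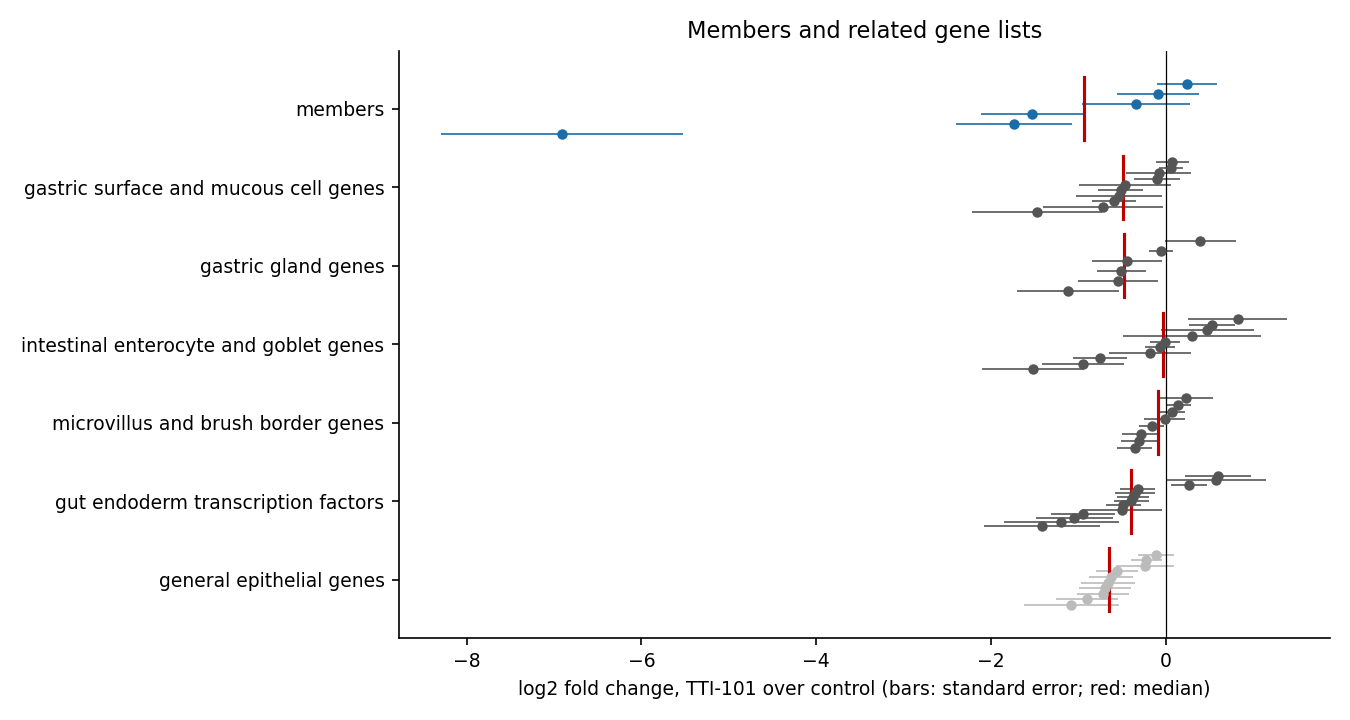
Log2 fold changes, TTI-101 over Control, with standard errors, of the 6 tested members (blue), of genes on 5 gastric and gut lists (dark gray) and of 10 general epithelial genes (light gray), with list medians in red. Gkn2 lies at -6.91, and the 47 list genes that passed the filter on low counts lie between -1.52 and 0.83; genes that did not pass are not drawn.

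Markers of other lung cell types were read in the same lungs, and none of those listed here had an adjusted p under 0.05 in edgeR. Alveolar type 2 cell markers were below 0 in 12 of 12 genes, with a median log2 fold change of -0.40 and sums of 53898 to 98068 CPM in Control and 43834 to 76601 CPM in TTI-101 lungs. Club cell markers were below 0 in 7 of 9 genes (median -0.55, 17180 to 41351 against 14648 to 31332 CPM), and ciliated cell markers in 10 of 10 (median -0.66, 569 to 1421 against 531 to 1197 CPM). Alveolar type 1 cell markers were above 0 in 12 of 14 genes (median 0.43, 5330 to 8327 against 6730 to 10113 CPM). Among 8 tuft cell markers, 4 were tested, with a median of 0.63 and sums of 23.7 to 36.0 against 29.9 to 39.6 CPM, with 3 of the 4 above 0. Dclk1 was the tuft cell gene below 0, at a log2 fold change of -0.67 (edgeR adjusted p = 0.657). Among the low tuft cell genes, Chat had 0 counts in Control and 15 in TTI-101 lungs, and Gnat3 had 9 and 1. Most of the Chat counts were from 1 TTI-101 lung, at 0.841 CPM. Dendritic cell and macrophage markers had 8 of 10 genes above 0 (median 0.17, 384 to 1134 against 607 to 884 CPM).

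Markers of the upper digestive tract and liver were low in both groups, with 4 of 12 tested, 3 of the 4 below 0 and sums of 10.9 to 25.1 CPM in Control and 9.97 to 20.1 CPM in TTI-101 lungs. Sbsn had the highest mean of them in both groups and was at 6.45 CPM in Control and 9.31 CPM in TTI-101 lungs, and Sprr1a was at 2.37 and 2.09 CPM. Fgb had no counts, and Krt13 and Krt4, keratins of the esophagus, had 22 and 19 counts in Control and 7 and 8 in TTI-101 lungs. Alb ranged from 0.658 to 11.1 CPM in Control, with the highest in Control 4, and from 0.608 to 0.889 CPM in TTI-101 lungs. The part of these cell types in the levels of Gkn2, Hnf4a and Vil1 was not tested.

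The genes whose log2 CPM followed Gkn2 most closely over the 8 lungs were Gm47483, Mat1a, Ccnd1, Ppm1h and AC113595.1, with r between 0.969 and 0.99 (Pearson). Ccnd1, which encodes cyclin D1, was at 256 CPM in Control and 148 CPM in TTI-101 lungs, and Mat1a, an enzyme of methionine metabolism, at 22.3 and 12.5 CPM. This ranking kept the group difference by which Gkn2 was chosen, so nothing is read from the lower TTI-101 means. After the group means were subtracted, the closest were Hspa9, 9930017N22Rik, Ptpn2, Trpm6 and Mat1a, with r between 0.968 and 0.993. All 9 genes were highest in Control 4, the lung that set Gkn2 apart, and the values are a ranking over 8 libraries with no test.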

How the data were processed

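Novogene sequenced poly(A)-selected RNA of whole CC-LR lungs with a stranded, paired-end protocol, from 4 Control mice and from 4 mice given TTI-101, with 1 library for each. The table deposited by the authors holds raw counts of reads, with no normalization, and the length of each of 54532 genes. The submitters' processing notes name STAR, DESeq2 and mm10. The counting tool and its strand setting were not given in the sources used here, so reads from overlapping or antisense genes may not be separated. Of the identifiers, 54495 were in GENCODE M21, and 53548 of the genes, 7 of the 8 members among them, had the same coordinates there, which places them on GRCm38.

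The software was R 4.3.3, DESeq2 1.42.0, edgeR 4.0.16 and limma 3.58.1. The edgeR filter (filterByExpr, minimum count 10) kept 17138 genes, of which 6 were members, and Gkn1 and Tff1 did not pass. Libraries were scaled by TMM, and groups were compared by robust quasi-likelihood F-tests without covariates, with Benjamini-Hochberg adjustment over all genes tested. Log2 CPM used a prior count of 2. FPKM is the CPM per 1000 bases of the deposited gene length. Totals of 16075855 to 26873509 counts place the level of 3 counts between 0.110 and 0.192 CPM. The fits were tested on simulated data.

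The members and gene lists were chosen with earlier results of these data known. Named list genes were, for each of the 5 lists, the 4 with the highest mean FPKM among those past the filter and any with an unadjusted p under 0.05, plus 14 genes named in all cases, of which 1 is not reported here. Other genes were named as the 5 closest to Gkn2 by Pearson's r, with and without group means, and as protein-coding neighbors within 100 kb. Genes outside these rules, such as Pga5, Fgb or Krt13, were named after their values were seen. Alternatives were DESeq2, other size factors, no filter, other prior counts, Xist as a covariate, a block for the replicate number and each library left out. DESeq2 with each library left out and the 10 pairs of members without Gkn2 were chosen after seeing the data.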

Additional observations from a re-analysis of the deposited data

Results flagged for a closer look

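A group of 4 lungs was set aside for a closer look where its highest or lowest lung lay farther from the nearest of the others than Dixon's 95% critical value allows, as a share of the range of the group. Of 46 groups examined, 4 passed, where chance gives 2.3. In the Control group, Gkn2 in Control 4, at 64.0 CPM against 7.32 CPM in the nearest lung, had a ratio of 0.91. Gkn2 per 1000 CPM of epithelial genes, at 18.5 in Control 4 against 3.33 in the nearest lung, had a ratio of 0.863. The share of mitochondrial counts, at 5.56% in Control 4 against 2.85% in the nearest lung, had a ratio of 0.867. In the TTI-101 group, the summed CPM of alveolar type 2 cell markers, at 76601 in TTI-101 2 against 47712 in the nearest lung, had a ratio of 0.882. These 4 flags came from 2 lungs, Control 4 in 3 of them, and the measures of 1 lung are not independent of each other.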

How the results depend on the processing

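The adjusted count of 0 genes became 4 with DESeq2, 1 with Xist as a covariate and between 0 and 1 with each library left out. DESeq2 with each library left out called between 3 and 461 genes, with 330 without Control 1 and 461 without TTI-101 2. Genes at an unadjusted p under 0.05 in edgeR went from 1132 to 1849 without a filter and to between 422 (without TTI-101 3) and 2498 (without TTI-101 2) with a library left out. The gastric and gut list genes with an adjusted p under 0.05 stayed at 0 under every alternative in which they were counted. They were not counted in the runs of DESeq2 with a library left out. The 6 that were lower at an unadjusted p became 10 with DESeq2, 11 without a filter and between 0 and 13 with a library left out: 13 without Control 1 or TTI-101 2, 1 without Control 4 or TTI-101 4, and 0 without TTI-101 1 or TTI-101 3. The 0 that were higher became 2 with DESeq2, 2 without a filter and between 0 and 1 with a library left out. The cause of these changes was not tested.

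Same-numbered mice of the 2 groups had correlations of their deviations of 0.393, 0.0822, 0.158 and 0.0707, not all of which were over 0.1, so the numbers were not taken as pairs. All 4 were above 0, the level of Xist also went with the number, and 4 of the 8 lungs correlated best with their own number in the other group. Depth went with the number in part, as mouse 1 had the most counts and mouse 3 the next most in both groups. Whether the numbers mark matched mice was not given in the sources used here. With a replicate block, 3 list genes were lower at an unadjusted p and 0 genes had an adjusted p under 0.05.

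The log2 fold change of Gkn2 ran from -7.49 to -4.64 with a library left out, and was -4.64 without Control 4. Gkn2 was chosen by this contrast, so its direction in these repeats supports nothing. With a library left out, the log2 fold changes of Tff2, Lgals4 and Ctse changed sign, over ranges of -1.15 to 0.06, -0.04 to 0.45 and -0.36 to 0.41, whereas Hnf4a (-2.36 to -1.17) and Vil1 (-1.83 to -0.68) did not. The correlation of Gkn2 with Hnf4a was between 0.717 and 0.861 and missed the adjusted threshold in 6 of the 8 repeats. That with Vil1 was between 0.197 and 0.929 and was 0.833 where the group means were kept, a value that holds the group difference by which Gkn2 was chosen. Without Control 4 the correlation with Tff2 turned to 0.193, with Lgals4 to 0.173 and with Ctse to -0.747, from ranges of -0.638 to 0.193, -0.657 to 0.173 and -0.747 to 0.540. At 3 counts a library, Gkn2 in the TTI-101 lungs, Gkn1 and Tff1 were at or near the limit of depth.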
